A study of Mus musculus with 22 samples.

Results

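The genes described here mark lymphocytes, or organise the tissue in which lymphocytes gather, and were followed in the white fat of mice breathing reduced or normal oxygen. The list names 32 genes: 6 of the T cell receptor complex and its co-receptors, 8 of T cell signalling and surface, 7 of B cells, 6 of natural killer (NK) and cytotoxic cells and 5 of lymphoid tissue organisation. They were found on the arrays by the gene name that the scanner files give to each non-control spot. By that name 31 of the 32 had a probe, on 44 probes in all, and 21 were tested, of 16578 tested genes. A gene was tested where a probe was well above background in the mouse channel on at least 10 of the 22 arrays.

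The tissue was epididymal white adipose tissue, the visceral fat pad beside the epididymis, of male mice of the inbred strain C57BL/6JOlaHsd with no genetic alteration named. Per the label on housing, all mice were 10 weeks old on arrival and ate purified feed, 3 weeks of a low-fat diet (fat supplying 10% of the energy) and then 6 weeks of a high-fat diet (40%), before a fast. The label on treatment speaks of high-fat against low-fat feeding, so whether all mice shared these diets is uncertain, and diet did not enter the fit. The hypoxia group (10 mice) then spent 6 hours at 12% oxygen, and the normoxia group (12 mice) spent the same 6 hours at 20.9% oxygen. Each array set the Cy5 signal of 1 mouse against the Cy3 signal of a common pool. Unless stated otherwise, a value below is the log2 ratio of a mouse to that pool, and 0 means the level of the pool. The comparison asked whether 6 hours of mild hypoxia changed the lymphocyte transcripts of the fat pad.

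T cells recognise antigen through a receptor whose signal is carried by the CD3 chains and started by the kinases Lck and Zap70, while B cells use an antibody receptor whose signal is carried by Cd79a and Cd79b. NK cells and cytotoxic T cells kill with perforin and granzymes released from granules. Lymph nodes and the small lymphoid clusters of visceral fat are built around chemokines: Ccl19 and Ccl21 draw T cells and dendritic cells through the receptor Ccr7, Cxcl13 draws B cells, and lymphotoxin keeps the stromal cells that make them in place.

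The arrays differed in signal more than the groups did. Between 15.6% and 76.8% of the spots stood well above background in Cy5 on hypoxia arrays and between 18.3% and 66.3% of them on normoxia arrays. The arrays lay on 6 slides, of which 5 carried both groups and 1 carried normoxia arrays only. On the dimmest slide, with 4 arrays, the share was 15.6% to 18.9%, and 16 of the 21 tested genes were well above background on none of its arrays, whereas 9 of the 21 were well above background on all arrays of the other slides. Adipoq, Lep, Plin1, Fabp4 and Cidec, which adipocytes make, were well above background on all 22 arrays, so the labelled tissue carried its defining markers. The median standard error of a difference between the groups was 0.10 on the log2 scale.

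No lymphocyte or lymph node gene differed between hypoxia and normoxia in limma's test adjusted over all 16578 genes: 0 of 21 had an adjusted p under 0.05, where the share over all genes was 0%. At an unadjusted p under 0.05 stood 2 of the 21, against 5.3% of all genes. Both, Ccl19 and Gzma, were higher in hypoxia, against 2.58% of all genes. None of the 21 was lower at that level, against 2.73% of all genes. The difference was positive for 12 of the 21 genes with a median of 0.05, and positive for 8361 of the 16578 genes with a median of 0.001. The values of hypoxia and normoxia mice overlapped for all 21 genes, and the share of genes whose groups did not overlap was 0% over all genes.

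**Figure D1:**
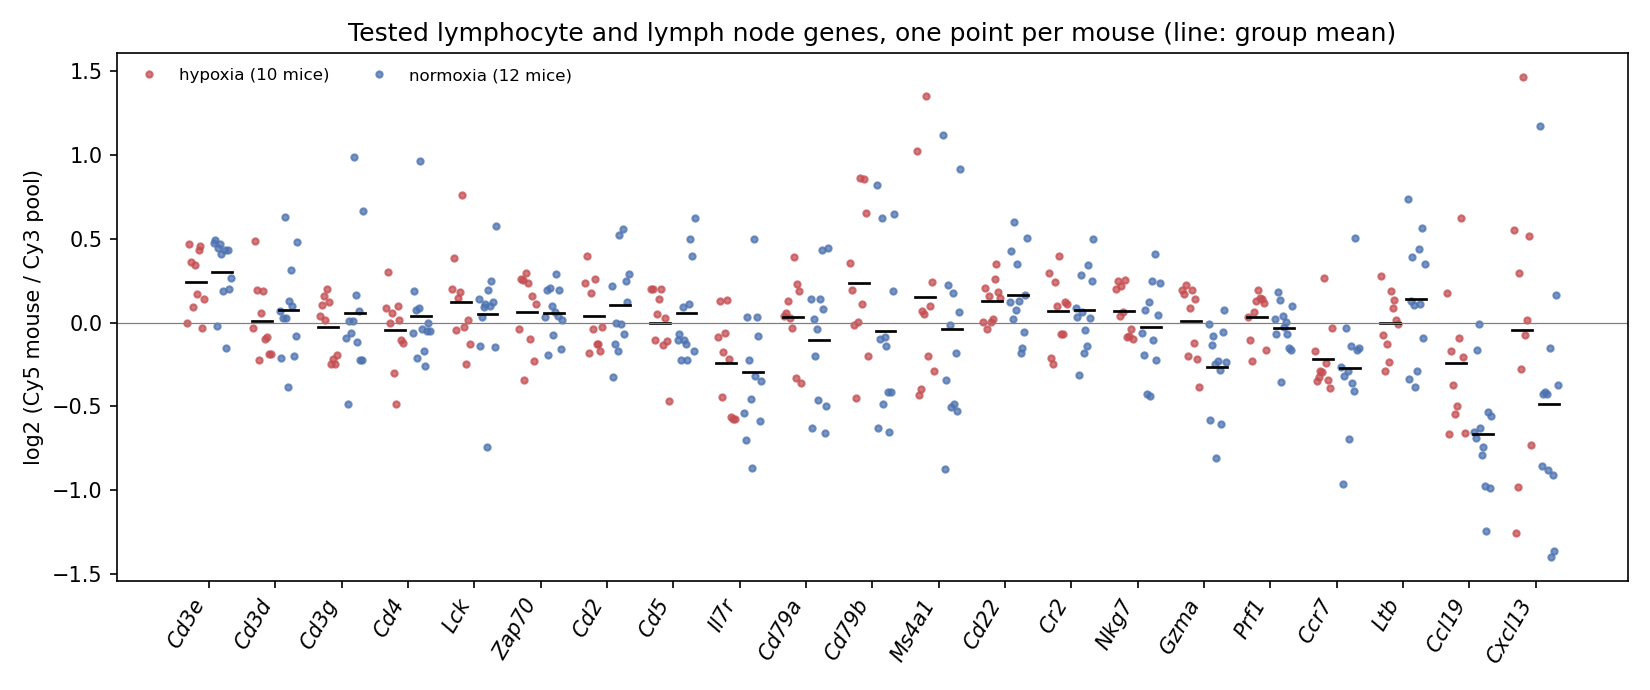
Log2 ratio of mouse to pool (vertical axis) for the 21 tested lymphocyte and lymph node genes, with hypoxia mice in red to the left of normoxia mice in blue for each gene, 1 point per mouse and a black line at the group mean. The 2 groups overlap for every gene, and Cxcl13, Ms4a1 and Cd79b have the widest spread between mice.

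The clearest member at the level of single genes was Ccl19, the chemokine that guides Ccr7-bearing T cells and dendritic cells. Its ratio in hypoxia mice was lowest at -0.67, with a median of -0.29 and a highest value of 0.62, and in normoxia mice it was lowest at -1.24, with a median of -0.67 and a highest value of -0.01. In 9 of 10 hypoxia mice it lay above the normoxia mean, and the groups overlapped between -0.67 and -0.01. The probe was well above background on 18 arrays, all those outside the dim slide. The means were -0.24 ± 0.41 in hypoxia (SD, n = 10) and -0.66 ± 0.34 in normoxia (SD, n = 12), a difference of 0.42 ± 0.15 (SE) or 1.34-fold, with a 95% interval of 0.12 to 0.72. Its unadjusted p was 0.00749 and its adjusted p in limma 0.765, so it did not pass the test. On the 5 slides with both groups the difference ran from -0.18 to 0.84 and was positive on 4.

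Ccl19 was read by 3 tested probes, shown here because each gave a difference in the same direction. The probe with the strongest signal, whose values stand above, lies in the file's mm9 coordinates at chr4:42250105-42250164, plus strand, and the others at chr4:42248526-42248585 and chr4:42248630-42248689 on the same strand.
Ccl19, strongest signal: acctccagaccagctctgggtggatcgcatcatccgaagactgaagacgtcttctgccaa
Ccl19, the second probe: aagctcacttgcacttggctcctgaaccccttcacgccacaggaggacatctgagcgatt
Ccl19, the third probe: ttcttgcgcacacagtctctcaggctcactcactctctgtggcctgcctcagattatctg
The differences of the second and the third probe were 0.26 ± 0.08 and 0.27 ± 0.10 (SE). In deviations from the group means over the 22 mice, the first probe correlated with them at r = 0.58 and r = 0.71, and they correlated with each other at r = 0.42. These probes share their mice and arrays and are not separate evidence. RefSeq (GRCm38.p6) has Ccl19 on the minus strand, opposite to the file's mm9 strand, in a cluster with near-identical copies, so which copy the Ccl19 probes read cannot be told apart here. Exon and untranslated regions cannot be given for them, because no annotation of the mm9 build was used here.

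Ccl21a, the second ligand of Ccr7, had no spot under its own name. The mouse genome carries several near-identical copies of Ccl21, 6 of them in the RefSeq table used here (GRCm38.p6), and the probes named Gm1987 and Gm13304 list transcripts of several copies. The Gm1987 probe, whose annotation includes the transcript of Ccl21a, is printed with the Gm13304 probe because the sequences share a run of 43 of their 60 bases; capitals mark AATAAA, the signal after which messenger RNA is cut and polyadenylated.
Gm1987, chr4:42232117-42232176: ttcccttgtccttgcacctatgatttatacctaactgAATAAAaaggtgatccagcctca
Gm13304, chr4:41775274-41775333: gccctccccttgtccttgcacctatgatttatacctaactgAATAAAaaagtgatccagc
Both were well above background on all 22 arrays and correlated at r = 0.98 over the mice. The Gm1987 ratio was lowest at -1.30, with a median of 0.08 and a highest value of 0.85 in hypoxia mice, and lowest at -2.19, with a median of -0.50 and a highest value of 1.47 in normoxia mice. Normoxia mice spanned the hypoxia range at both ends. The difference was 0.45 ± 0.36 (SE) with an unadjusted p of 0.214, and the SD between mice of 1 group, 0.95, was above that of 99.3% of tested genes. Which copy these probes read cannot be told apart here, and the Gm1987 and Gm13304 values are given beside the list, not as values of Ccl21a.

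Cxcl13, the B cell chemokine of follicles and of the lymphoid clusters of fat, had the widest spread of the 21 genes. Its probe and those of the B cell genes Ms4a1 and Cd79b are printed because their values were correlated across mice.
Cxcl13, chr5:96389861-96389920, plus strand: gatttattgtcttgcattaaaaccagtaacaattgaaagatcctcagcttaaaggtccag
Ms4a1, chr19:11325367-11325426, minus strand: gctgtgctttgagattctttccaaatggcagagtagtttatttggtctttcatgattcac
Cd79b, chr11:106172780-106172839, minus strand: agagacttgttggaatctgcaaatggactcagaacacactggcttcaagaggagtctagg
The Cxcl13 ratio was lowest at -1.25, with a median of -0.03 and a highest value of 1.46 in hypoxia mice, and lowest at -1.40, with a median of -0.43 and a highest value of 1.17 in normoxia mice. The highest mouse of each group stood apart from the rest, and the lowest mice of both groups were close together. The difference was 0.44 ± 0.28 (SE), with a 95% interval of -0.14 to 1.02, an unadjusted p of 0.132 and an adjusted p in limma of 0.969. Within slides the difference ran from -0.24 to 1.02 and was positive on 3 of 5. Without hypoxia replicate 6 it was 0.27, and without normoxia replicate 1 it was 0.59. The SD between mice of 1 group was 0.75, above that of 98.8% of tested genes.

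The remaining genes of lymphoid tissue organisation were Ccr7, the receptor of Ccl19 and Ccl21, and Ltb, the membrane anchor of lymphotoxin. Ccr7 averaged -0.22 ± 0.20 in hypoxia and -0.27 ± 0.36 in normoxia (SD), a difference of 0.06 ± 0.12 (SE). Ltb averaged -0.004 ± 0.18 in hypoxia and 0.14 ± 0.37 in normoxia (SD), a difference of -0.15 ± 0.12 (SE), the lowest of the 21. Neither difference was larger than the spread between mice, and normoxia mice spread more widely than hypoxia mice for both genes. Over the 4 tested genes of this role 3 differences were positive, with a median of 0.24.

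Of the 7 B cell genes, 5 were tested, 3 of them with a positive difference and with a median of 0.14. Cd79b, a signalling chain of the B cell receptor, was lowest at -0.45, with a median of 0.15 and a highest value of 0.86 in hypoxia mice, and lowest at -0.65, with a median of -0.12 and a highest value of 0.82 in normoxia mice. Its difference was 0.29 ± 0.19 (SE) with an unadjusted p of 0.130, and it was positive on 4 of 5 slides. Ms4a1, which encodes the surface protein CD20 of mature B cells, was lowest at -0.43, with a median of 0.06 and a highest value of 1.35 in hypoxia mice, and lowest at -0.87, with a median of -0.10 and a highest value of 1.12 in normoxia mice. The highest mice of the groups lay close together, the lowest were normoxia mice, and the difference was 0.19 ± 0.23 (SE). Without hypoxia replicate 6 the Ms4a1 difference was 0.05, and without normoxia replicate 1 it was 0.29.

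Cd79a, the partner chain of Cd79b, averaged 0.03 ± 0.23 in hypoxia and -0.10 ± 0.39 in normoxia (SD), a difference of 0.14 ± 0.13 (SE). Cd22, a receptor that dampens B cell activation, had a difference of -0.04 ± 0.09 and Cr2, the complement receptor of B cells and follicular dendritic cells, one of -0.01 ± 0.10 (SE). Pax5, the transcription factor that holds B cell identity, was well above background on 3 arrays and Blk, a B cell kinase, on 2. Both were therefore not tested.

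The 4 tested genes of the T cell receptor complex and co-receptors all had a negative difference, with a median of -0.07, and none passed. The Cd3e probe is printed as the only CD3 probe well above background on all 22 arrays; it lies at chr9:44806828-44806887 on the minus strand and holds AATAAA, in capitals.
Cd3e: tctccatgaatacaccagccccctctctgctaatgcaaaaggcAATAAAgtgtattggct
The Cd3e ratio was lowest at -0.03, with a median of 0.26 and a highest value of 0.47 in hypoxia mice, and lowest at -0.15, with a median of 0.42 and a highest value of 0.50 in normoxia mice. Most mice of both groups lay above the pool, and the difference was -0.06 ± 0.09 (SE), with a 95% interval of -0.24 to 0.12. The differences of the CD3 chains Cd3d and Cd3g were -0.06 ± 0.11 and -0.08 ± 0.13 (SE). Cd4, the co-receptor of helper T cells that macrophages can also carry, had a difference of -0.09 ± 0.11 (SE). The highest values of Cd3g and Cd4, 0.99 and 0.96, came from normoxia replicate 6. With 1 array left out, the differences reached -0.0003 for Cd3g and -0.001 for Cd4. The medians of both were higher in hypoxia, at 0.03 against -0.03 for Cd3g and 0.005 against -0.04 for Cd4. Those of Cd3e and Cd3d were lower in hypoxia.

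Cd3g was just inside the limit of 10 arrays, with 11 arrays well above background, and Cd28, a co-stimulatory receptor of T cells, was just outside it, with 9. Cd8a and Cd8b1, the co-receptor chains of cytotoxic T cells, were each well above background on 2 arrays. Foxp3, the transcription factor of regulatory T cells, reached 7 arrays and Icos, a second co-stimulatory receptor, 6. Cd8a, Cd8b1 and Foxp3 were thus too dim to test, whereas the CD3 chains and Cd4 were tested.

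Of T cell signalling and surface, 5 of 8 genes were tested, with 3 positive differences and a median of 0.002. Lck, the kinase that starts receptor signalling, averaged 0.12 ± 0.29 in hypoxia and 0.05 ± 0.31 in normoxia (SD), a difference of 0.08 ± 0.12 (SE). Zap70, the kinase recruited next, averaged 0.06 in both groups. The adhesion receptor Cd2 and the inhibitory receptor Cd5 had differences of -0.07 ± 0.10 and -0.06 ± 0.11 (SE). A dimmer Cd2 probe had the opposite sign, at 0.04 ± 0.06 (SE), and the Cd2 probes correlated at r = 0.27 over the mice. Il7r, the interleukin 7 receptor chain that keeps naive and memory T cells alive, had a difference of 0.05 ± 0.13 (SE). No difference of this role was larger than 0.08 in size, and all of their 95% intervals included 0.

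Gzma, a granzyme of NK cells and cytotoxic T cells, was the second gene at an unadjusted p under 0.05; its probe is printed for that reason, lies at chr13:113884035-113884094 on the minus strand and also holds AATAAA, in capitals.
Gzma: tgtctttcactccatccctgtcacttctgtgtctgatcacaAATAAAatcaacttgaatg
The Gzma ratio was lowest at -0.38, with a median of 0.11 and a highest value of 0.22 in hypoxia mice, and lowest at -0.81, with a median of -0.23 and a highest value of 0.07 in normoxia mice. In 9 of 10 hypoxia mice it lay above the normoxia mean. The difference was positive on all 5 slides with both groups, from 0.08 to 0.37. The probe was well above background on 17 arrays, but on none of the 4 on the dim slide, where the difference was 0.17. The means were 0.01 ± 0.22 in hypoxia (SD, n = 10) and -0.27 ± 0.27 in normoxia (SD, n = 12). The difference was 0.27 ± 0.10 (SE) or 1.21-fold, with a 95% interval of 0.06 to 0.49, an unadjusted p of 0.0136 and an adjusted p in limma of 0.830.

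The other tested genes of this role had smaller differences on their main probes. Nkg7, a granule protein of cytotoxic cells, had a difference of 0.10 ± 0.09 (SE) on its brighter probe and 0.26 ± 0.11 (SE) on a dimmer one, and those 2 probes correlated at r = 0.18 over the mice. Prf1, which encodes perforin, had a difference of 0.06 ± 0.07 (SE) and the smallest spread of the 21 genes, with an SD of 0.15. Its probe was dim, with a median Cy5 signal of 64.1, and well above background on 15 arrays, none of them on the dim slide. Whether the dim signal narrowed the spread was not tested. The NK receptors Klrb1c and Ncr1 were well above background on 4 and 3 arrays, and Gzmb, a second granzyme, on 1, so the markers that define NK cells were not tested.

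**Figure D2:**
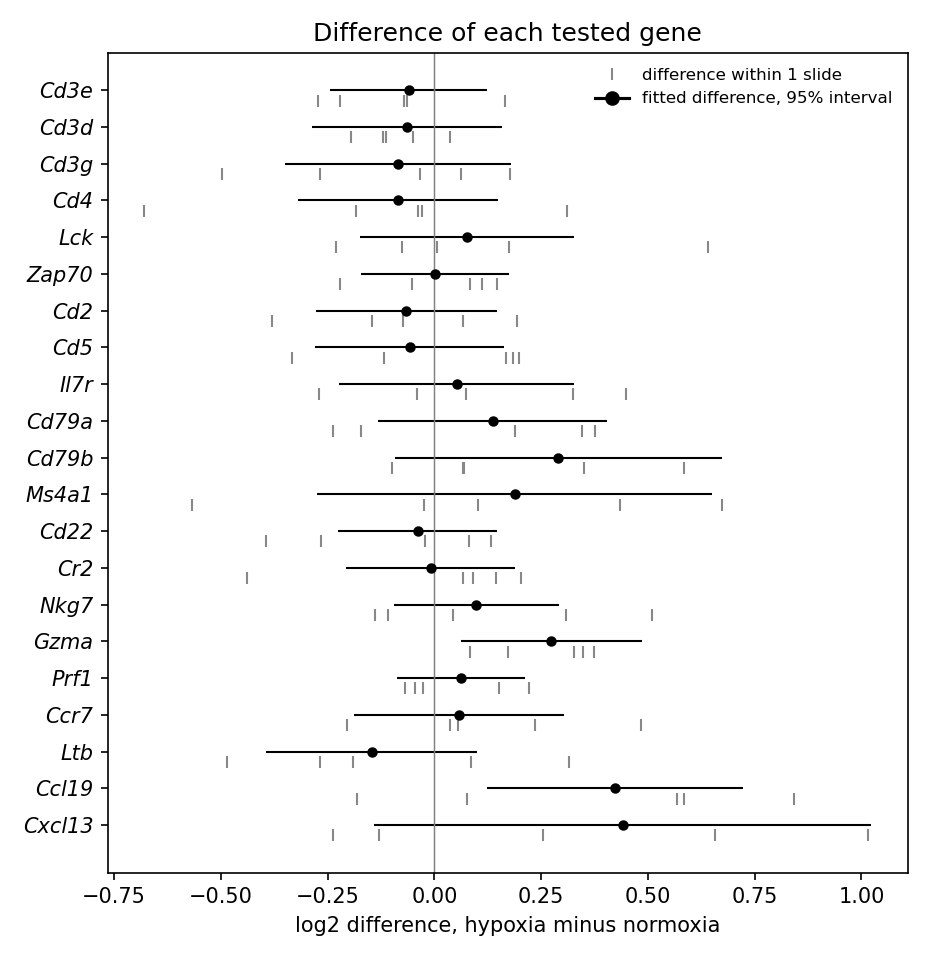
Fitted log2 difference, hypoxia minus normoxia (horizontal axis), of each of the 21 tested genes with its 95% interval in black, and in grey below it the difference within each of the 5 slides that carried both groups. The intervals of Ccl19 (0.12 to 0.72) and Gzma (0.06 to 0.49) lie above 0, and the other 19 include it.

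AATAAA stood in 8 of the 44 probes of the list and in 10.1% of all 55681 probes with a sequence, and its reverse complement TTTATT in 3.74%. This letter match describes the probes and shows no site of cleavage. The arrays measure RNA of whole fat pads, in which fewer lymphocytes and less RNA per lymphocyte cannot be told apart.

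The SD between mice was larger than the size of the difference between the groups for 19 of the 21 genes, all except Ccl19 and Gzma. The SD between mice of 1 group was 0.59 for Ms4a1 and 0.48 for Cd79b, above that of 97.8% and 96.5% of tested genes. The median SD was 0.28 over the 21 genes and 0.23 over all genes. Within the list it was 0.33 for the B cell genes and for the genes of lymphoid tissue, against 0.27 for the T cell receptor complex and 0.22 for the NK and cytotoxic genes. Group membership accounted for 26.1% of the variance of Ccl19 and 25.1% of that of Gzma, and for 8.57% of that of Cxcl13 and 2.66% of that of Ms4a1.

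**Figure D3:**
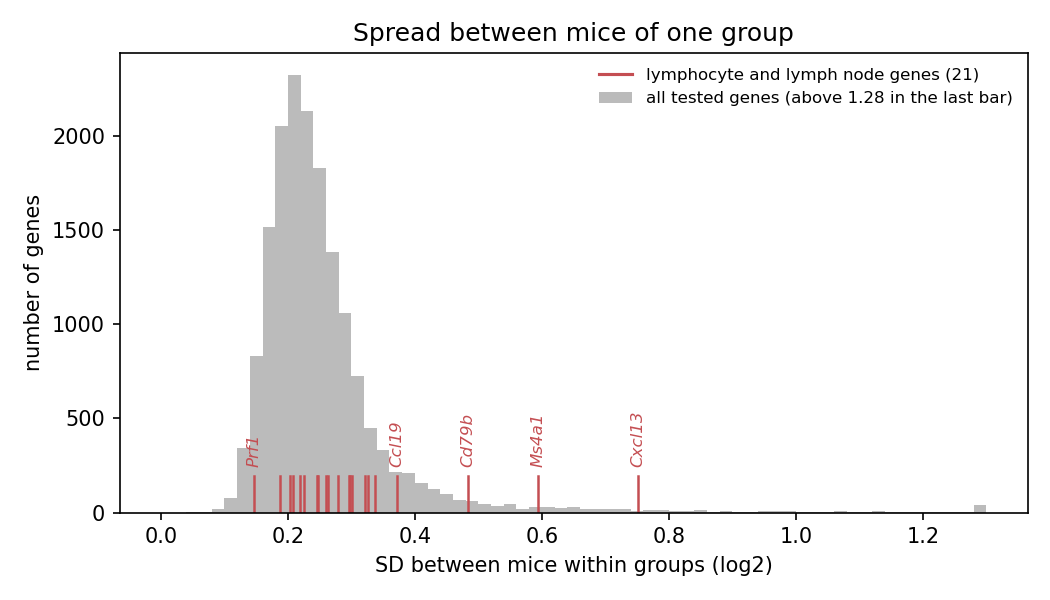
Number of genes (vertical axis) by the SD between mice within groups, on the log2 scale (horizontal axis), for all 16578 tested genes in grey, with a red mark for each of the 21 lymphocyte and lymph node genes. Cd79b, Ms4a1 and Cxcl13 lie in the upper tail, at 0.48, 0.59 and 0.75, and Prf1 at the lower end, at 0.15.

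Whether partner genes varied together across mice was asked of 20 pairs for which both genes were tested, out of 30 listed. Correlations were computed on deviations from the group means over 22 mice, with a two-sided test that permuted mice within groups 100000 times and Benjamini-Hochberg adjustment over the 20 pairs. For 2 pairs the adjusted p was under 0.05.

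Cxcl13 and Ms4a1 correlated at Pearson's r = 0.84 (permutation p = 1e-05, the smallest that these permutations can give, adjusted p = 0.0002) and Spearman's rho = 0.89 (permutation p = 1e-05, adjusted p = 0.0002). Within the groups r was 0.90 over the 10 hypoxia mice and 0.78 over the 12 normoxia mice. In hypoxia replicate 6 the ratios of Cxcl13 and Ms4a1 were 1.46 and 1.35, and in normoxia replicate 1 they were 1.17 and 1.12, the highest of each group for both genes. Without those 2 mice, the farthest from the median of Cxcl13, r was 0.70 with an adjusted p of 0.011 by permutation. In deviations from the group mean on the same slide r was 0.87, with an adjusted p of 0.0072 from permuted signs of 11 differences between mice. Without the slide of 4 dim arrays r was 0.85.

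Cd79b and Ms4a1 correlated at r = 0.72 (permutation p = 0.00026, adjusted p = 0.0026) and rho = 0.66 (permutation p = 0.00162, adjusted p = 0.0162). Without normoxia replicates 1 and 12, the farthest from the median of Cd79b, r was 0.59 with an adjusted p of 0.082 by permutation, so the adjusted call rests on those mice. Within slides r was 0.71 with an adjusted p of 0.0603. Within the groups r was 0.57 over hypoxia mice and 0.83 over normoxia mice.

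**Figure D4:**
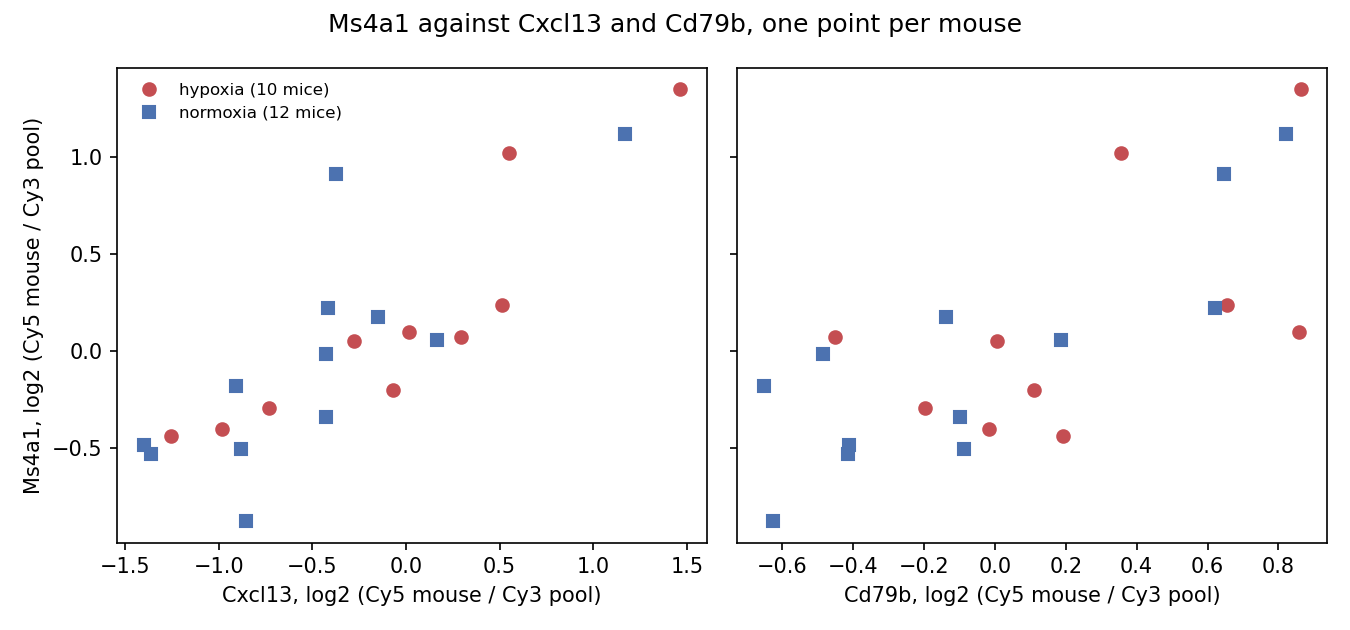
Log2 ratio of Ms4a1 (vertical axes) against that of Cxcl13 (left) and Cd79b (right), 1 point per mouse, hypoxia mice as red circles and normoxia mice as blue squares. Hypoxia replicate 6 and normoxia replicate 1 lie at the upper right of both panels, and mice of both groups lie at low and at high values of each gene.

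Most pairs that share a cell type did not pass. The B cell receptor chains Cd79a and Cd79b correlated at r = 0.39 (adjusted p = 0.378 by permutation). Among the CD3 chains, Cd3e and Cd3d correlated at r = 0.15, Cd3d and Cd3g at 0.14 and Cd3e and Cd3g at -0.06. The deposited value table holds log2 levels that correlated with log2 Cy5 at 0.902 to 0.999 per array, and not ratios to the pool. On that unlike measure r was -0.73 for Cd3e with Cd3g (adjusted p = 0.000733) and 0.54 for Cd3d with Cd3g (adjusted p = 0.0327). It was 0.81 for Cd3e with Cd4 (adjusted p = 0.000733) and 0.62 for Cd79a with Cd79b (adjusted p = 0.0135), all by permutation. Cd3e and Zap70 correlated at r = 0.56 with an adjusted p of 0.0507 by permutation. Ccl19 and its receptor Ccr7 correlated at r = 0.07, and Ltb and Ccl19 at r = 0.29. In deviations within slides Ltb and Ccl19 correlated at r = 0.84, with an adjusted p of 0.0087 from permuted signs.

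As a description over all 210 pairs of the 21 genes, which share their arrays, the median r was 0.17. It was 0.34 over the 10 pairs of B cell genes, 0.31 over the 20 pairs of a B cell gene with a gene of lymphoid tissue, 0.15 over the 36 pairs of T cell genes and -0.001 over the 36 pairs of a T cell gene with a gene of lymphoid tissue. The highest pairs outside the 20 tested were Lck with Nkg7 at 0.67, Lck with Il7r at 0.67 and Ms4a1 with Cr2 at 0.66. The lowest was Cd4 with Lck, at -0.67, which rested on a pair of mice: without normoxia replicate 6 it was -0.39, and without hypoxia replicate 6 as well it was -0.02.

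**Figure D5:**
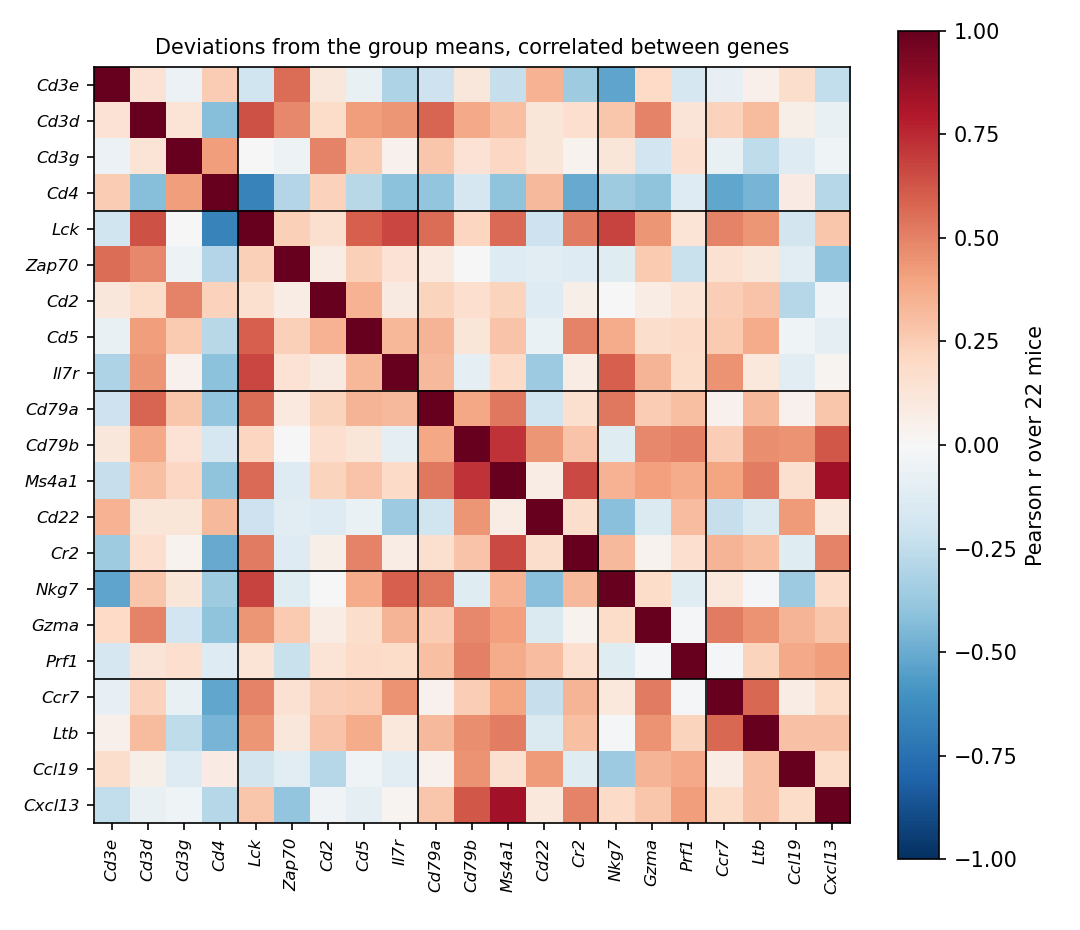
Pearson's r over 22 mice between the 21 tested genes, from blue at -1 to red at 1, computed on deviations from the group means, with black lines between the roles. Ms4a1 with Cxcl13 (0.84) and with Cd79b (0.72) are the highest, and Cd4 with Lck (-0.67) is the lowest.

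The genes most like Cd79a across the mice were Gimap1 at r = 0.72, Rac2 at 0.67, Ptprcap at 0.66, Gimap5 at 0.65 and H2-Ob at 0.65, among the other tested genes that have a gene symbol and over 22 mice; probes without one were not ranked here or for the genes that follow. For Cd3e they were Jagn1 at 0.76, Prr5 at 0.75, Zfp146 at 0.73, Lrrc32 at 0.73 and Col18a1 at 0.72, and none of them belonged to the list. For Ccl19 they were Tbx1 at 0.75, Gm4788 at 0.72, Art4 at 0.72, Gm13889 at 0.71 and Col6a5 at 0.70. Ms4a1, Cxcl13 and Cd79b were added to these queries after their values had been seen. Ms4a1 was most like Pou2af1 at 0.86, Btla at 0.84, Cxcl13 at 0.84, Fcmr at 0.82 and Jchain at 0.81, and Cxcl13 was most like Ms4a1 at 0.84, Pou2af1 at 0.81, F5 at 0.80, Zfp654 at 0.76 and Bank1 at 0.75. Cd79b was most like Spib at 0.88, then Prg4 at 0.76, Naxd at 0.75, Pgk1 at 0.73 and Fcmr at 0.73. Pou2af1 and Spib encode transcription factors of B cells, Fcmr the IgM receptor, Jchain the chain that joins IgM and IgA, and Bank1 an adaptor of B cell receptor signalling. These are the upper end of the 18 tested B and plasma cell genes outside the list. The median r of those 18 was 0.35 with Ms4a1 (14 of 18 positive) and 0.26 with Cxcl13 (13 of 18 positive). The lowest of them were Cd74 with Ms4a1 at -0.50 and Btk with Cxcl13 at -0.55. Over all tested genes the median r was 0.08 with Ms4a1 and 0.06 with Cxcl13, and the 95th percentile was 0.46 and 0.42. For each tested gene of the list, the highest r with any other gene lay between 0.70 (Prf1) and 0.91 (Cd4), probes without a symbol included. Values of that size at the top of a ranking were therefore not particular to the B cell genes.

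Genes outside the list that the same cells express, some of them also made by other cells, were counted in the same fit, and none passed. Of 26 further B and plasma cell genes 18 were tested, with 16 positive differences and a median of 0.08. The largest were Sdc1, a surface marker of plasma cells, at 0.20 ± 0.13 (SE) and Cd74, the invariant chain of class II presentation, at 0.15 ± 0.15, and the smallest were Blnk at -0.08 ± 0.12 and Ciita at -0.05 ± 0.12. Of 31 further T cell genes 18 were tested, with 11 positive differences and a median of 0.01, among them Ccl5 at 0.16 ± 0.13, Tbx21 at -0.10 ± 0.11 and S1pr1 at -0.14 ± 0.10 (SE). Of 16 further NK genes 4 were tested: Tyrobp at 0.20 ± 0.13, Fcer1g at 0.02 ± 0.13, Gzmk at -0.02 ± 0.08 and Klrg1 at -0.27 ± 0.17 (SE). Tyrobp and Fcer1g were well above background on 22 arrays, and the untested Klrd1 and Klrk1 on 8 and 1. Which cells the Tyrobp and Fcer1g values come from was not tested.

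Of 26 genes of lymphoid stroma and its signals 18 were tested, with 12 positive differences and a median of 0.09. The largest were Cxcl10 at 0.25 ± 0.16 and Pdpn at 0.21 ± 0.13, and the smallest Relb at -0.11 ± 0.07 and Cxcl12 at -0.25 ± 0.13 (SE). Of 10 genes of lymphatic endothelium 5 were tested. Ackr4, a receptor that removes Ccl19 and Ccl21, had a difference of 0.30 ± 0.12 (SE, unadjusted p = 0.023, adjusted p in limma 0.872), and Lyve1, a hyaluronan receptor, one of 0.32 ± 0.17. Stab2 and Ackr2 had the smallest, at -0.10 ± 0.10 and -0.02 ± 0.11 (SE). With Ccl19, r was 0.55 for Ackr4, 0.53 for Stab2, 0.35 for Itga9, 0.04 for Lyve1 and -0.15 for Ackr2. None of these pairs was among those tested.

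Of 10 genes of type 2 innate lymphoid cells and their signals 4 were tested. Il33, the cytokine that activates these cells, averaged 0.18 in hypoxia and -0.29 in normoxia, a difference of 0.46 ± 0.17 (SE, unadjusted p = 0.012, adjusted p in limma 0.830). Klf2, Il1rl1 and Rora had differences of 0.11 ± 0.11, 0.03 ± 0.12 and -0.06 ± 0.11 (SE). Of 5 genes of lymph node follicles and high endothelium 2 were tested, Cr2, given above, and Chst4 at -0.02 ± 0.12 (SE), and the remaining genes of that list were not well above background on enough arrays.

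None of the markers of other cells that a fat pad holds passed the test. Of the 7 mesothelial genes tested, from the cell layer that covers visceral fat, all 7 had a positive difference, with a median of 0.18. The largest were Gpm6a at 0.36 ± 0.16 (SE, unadjusted p = 0.036, adjusted p in limma 0.900) and Upk3b at 0.32 ± 0.17, and the smallest Krt18 at 0.10 ± 0.47 and Krt19 at 0.08 ± 0.21 (SE). Their median r over the mice was 0.47 with Cxcl13, 0.40 with Cd79b, 0.35 with Ms4a1 and 0.33 with Ccl19, and the highest single values were Wt1 with Ms4a1 at 0.59 and Gpm6a with Ccl19 at 0.59. Krt18 and Krt19 had negative r with Ms4a1, at -0.30 and -0.22, and with Cd79b, at -0.25 and -0.11. Their part in the values of Cxcl13, Ms4a1, Cd79b and Ccl19 was not tested.

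The 13 macrophage genes had 10 positive differences and a median of 0.08, from Mrc1 at 0.22 ± 0.11 and Mpeg1 at 0.21 ± 0.12 to Adgre1 at -0.09 ± 0.14 and Itgam at -0.10 ± 0.11 (SE). The 10 adipocyte genes had 8 positive differences and a median of 0.04, from Fabp4 at 0.29 ± 0.24 and Lep at 0.28 ± 0.18 to Pparg at -0.04 ± 0.10 and Lpl at -0.11 ± 0.14 (SE). Their median r with Ms4a1 was -0.04 for each of these lists. The 7 tested dendritic cell genes had a median difference of 0.03, from Fscn1 at 0.13 ± 0.13 and H2-Aa at 0.09 ± 0.16 to Flt3 at -0.02 ± 0.07 and Siglech at -0.10 ± 0.15 (SE). The 4 tested neutrophil genes had a median of 0.10, with S100a8 at 0.32 ± 0.30, S100a9 at 0.21 ± 0.23, Ly6g at -0.004 ± 0.11 and Csf3r at -0.18 ± 0.21 (SE).

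The 4 tested genes of epididymis and testis, Tnp1, Prm1, Prm2 and Smcp, all had negative differences with a median of -0.53, and standard errors of 0.19 to 0.59. Their median r was 0.11 with Ms4a1 and -0.06 with Ccl19. None of the 21 genes passed in a correlation with the Cy5 brightness of the arrays. Over 21 correlations with the percentage of detected spots in Cy5, each over 22 mice, r ran from -0.38 to 0.38. The lowest adjusted p by permutation was 0.793. By rank, Prf1 had rho = -0.47 with an unadjusted permutation p of 0.026. In Cy3, hypoxia replicate 3 and normoxia replicates 2 and 6 had the most detected spots, 82.8%, 81.8% and 85.8%. Gzma was 0.22, -0.58 and -0.81 in those mice, and Ccr7 -0.33, -0.96 and -0.70. Correlation with Cy3 brightness was not tested.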

How the data were processed

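Per the labels, Cy5 carried the RNA of 1 mouse and Cy3 the common pool, and dyes were not swapped. Per the file headers, the scans were read with Feature Extraction 10.7.3.1 from Agilent; each deposited file holds mean and background intensity per spot and a log10 ratio. The deposited value table holds log2 values and was used as an alternative; it correlated with log2 Cy5 at 0.902 to 0.999 per array, all its columns have a median of 6.30, and how it was centred is not stated. Intensities were corrected with normexp (offset 50), loess-normalized within arrays with control spots at weight 0, and turned to log2 ratios in limma 3.58.1 (R 4.3.3). Flagged outlier spots were left out and spots of 1 probe averaged. Tested genes had a probe well above background in Cy5 on at least 10 arrays, and the probe with the highest mean intensity stood for the gene. lmFit and eBayes compared the groups with no covariate, with Benjamini-Hochberg adjustment over 16578 genes and a threshold of 0.05. Names were updated through RefSeq accessions (GRCm38.p6) for 27235 of 55681 probes, by symbol for 3581 and by synonym for 565, and 24300 kept the file's name. Probe positions are those of the files (mm9); probe sequences come from the files.

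The method was tested on simulated data: of 100 genes changed by 0.5 on the log2 scale it called 74%, of 100 changed by 1.0 it called 96%, and 3.95% of its calls were false. The simulation changed 200 of 16578 genes and drew independent normal noise with the SD of each gene, without slide effects. Its shares cover genes of all spreads, with a median SD of 0.23. They were not computed for the listed genes, whose SD reached 0.75 for Cxcl13. The number of arrays limits the precision. Replicate numbers did not pair the groups: same-numbered mice correlated at -0.47 to 0.25 over 10 pairs, with 2 over 0.1. The highest correlation between 2 arrays was 0.817, so no array was counted as a duplicate. Slides were taken from the scanner files' barcodes as technical batches.

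The genes and lists were chosen with earlier results of these data known. All listed genes are named. Of each companion list the genes named are the 2 largest and the 2 smallest differences and any with an unadjusted p under 0.05, and for Cd3e, Cd79a and Ccl19 the 5 most correlated genes; 1 gene that this rule names is not reported here. Alternatives were slide or replicate number as a block, other background corrections and normalizations, the deposited log10 ratio and log2 value table, other filters on dim probes, array weights, the mean over probes, leaving out arrays or slides, and other bases for the correlations.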

Additional observations from a re-analysis of the deposited data

Results flagged for a closer look

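In hypoxia replicate 10 the log2 ratio of Cd5, an inhibitory receptor of T cells, was -0.47, whereas the other 9 hypoxia mice lay between -0.14 and 0.20. Its gap to the nearest mouse was 0.497 of the group's range, above Dixon's 95% critical value of 0.466. Chance flags about 1 in 20 groups. The 21 hypoxia groups of 10 mice were searched, so 1.05 flags would be expected. The array of hypoxia replicate 10 was not among the dim ones. The groups of 12 normoxia mice were not searched. Among them Cd4 was 0.96 in normoxia replicate 6, and the other normoxia mice lay between -0.26 and 0.19.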

How the results depend on the processing

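No tested gene of the list passed the threshold under any of the 16 alternatives or when any 1 array was left out, but with probes above background on all 22 arrays only Cd3e, Cd4 and Cd22 were tested and the other 18 had no value; with the replicate block the counts were 0 for the list and 0 over all genes. The median difference lay between -0.04 and 0.07 over the alternatives that tested all 21 genes, and was -0.06 over those 3. The count over all genes was 0 in the fit reported, 1 with slide as a random block, with scaling between arrays and with the Feature Extraction log ratio, 2 with slide as a fixed block, with probes above background on all 22 arrays (6458 genes tested) and without the dim slide, and 4 with array weights; leaving out 1 array gave 0 to 3. It was 3 without hypoxia replicate 7 and 1 without hypoxia replicate 4, normoxia replicate 4 or normoxia replicate 8; the cause was not tested. The difference of Ccl19 ran from 0.32 to 0.56 with an unadjusted p under 0.05 in 35 of 37 settings, and that of Gzma from 0.15 to 0.46 in 34 of 37. The highest unadjusted p in limma were 0.0889 and 0.251, and the lowest adjusted p 0.348 and 0.527. These settings share mice, and 22 of them left out only 1 array, so they are not separate checks. Without the dim slide the differences of Ccl19 and Gzma were 0.50 and 0.30. Of 780 values of single genes 44 changed sign, 17 for Zap70 and 13 for Cr2, none of them called. The pairs past the threshold were 2, and 1 remained without the 2 farthest mice. On the deposited value table, whose values are log2 levels and not ratios to the pool, 7 passed. There Cd3g with Cd79b reversed to r = -0.57 (adjusted p = 0.0253 by permutation) and Cd3e with Cd3g was -0.73. The cause was not tested. Depth limits this list through dim signal: the median Cy5 signal per array was 35.1 to 108, over a background of 29 to 33.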
